A study of Mus musculus with 8 samples.

Results

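The nuclear genes for subunits of the oxidative phosphorylation chain were followed in myofibroblastic hepatic stellate cells treated with an inhibitor of O-GlcNAc transferase (OGT). Members were the genes whose symbols follow the naming patterns of complex I (Ndufa, Ndufb, Ndufc, Ndufs, Ndufv and Ndufab1), complex II (Sdha to Sdhd), complex III (Uqcr genes and Cyc1), complex IV (Cox4 to Cox8 genes) and complex V, the ATP synthase (Atp5 genes), with pseudogene names left out. The patterns found 89 of the 40840 genes listed, of which 41 belong to complex I, 4 to complex II, 9 to complex III, 18 to complex IV and 17 to complex V. Ndufa4, named for complex I, was counted with complex IV, where its protein is now placed. The patterns used symbols alone and no measured value.

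RNA was sequenced from primary mouse hepatic stellate cells, liver cells that store vitamin A and turn into collagen-producing myofibroblasts in culture (pMF-HSCs). Cells were sorted by retinol autofluorescence from livers of male C57BL/6J mice aged 15 to 18 weeks and grown for 7 days, and no genetic change was introduced in either group. Control cultures received the vehicle DMSO (n = 4), and OGTi cultures received OSMI-1, a small-molecule OGT inhibitor, at 50 µM for 24 h (n = 4). Control and OGTi cultures of the same replicate number came from 1 of 4 independent experiments and are called a pair.

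Oxidative phosphorylation passes electrons from NADH through complex I, or from succinate through complex II, to ubiquinone, then through complex III and cytochrome c to oxygen at complex IV. Complexes I, III and IV pump protons across the inner mitochondrial membrane, and complex V uses the returning protons to make ATP. A few core subunits of complexes I, III, IV and V are encoded by mitochondrial DNA and were not analysed here. The nuclear genes supply the remaining core subunits, all of complex II, and many small accessory subunits that surround the cores, so the nuclear members differ widely in transcript length.

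Library totals ranged from 30068881 to 37372423 counts. Among members with a mean of at least 100 counts per library (80 genes), mean scaled counts lay between 623 and 52621.1, so that the spread between cultures rather than counting error set the precision. Scaled counts are counts divided by a TMM-adjusted library size. Of the 89 members, 84 had a total of at least 10 counts and were tested. The 5 others were Cox7b2, Cox8b, Cox8c, Ndufa11b and Ndufs6b, all at or near 0 in every library.

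Libraries of the first and the fourth pair stood apart for members. In OGTi replicate 1, 78 of the 80 well-counted members were higher than in any other OGTi library, while 34.8% of all genes at that level were. In OGTi replicate 4, 63 of the 80 were lower than in any other OGTi library, against 33.9% of all such genes. In control replicate 4, 4 of the 80 members (Uqcrfs1, Cox5a, Cyc1 and Ndufab1) fell below 0.5 of the mean of the other 3 controls. Of all such genes 9.71% did so, and the remaining 76 members lay between 0.704 and 1.35 of that mean. Values without the first pair are therefore printed beside those of the members described, and values without the fourth where that pair decides a result.

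The promoter windows of 5 members are shown: Sdha was called lower, Cox5a was called higher, Uqcrc1 and Ndufa9 were among 6 further members called lower when a length trend was removed and were picked after the NRF1 and YY1 letters in their windows were seen, and Uqcrfs1 was the member lowest in control replicate 4 relative to the other controls. The windows run from 250 bases before to 50 bases after the annotated start and come from RefSeq on GRCm38.p6, a different build from the files. They are chr13:74350191-74350490, minus strand for Sdha; chr9:57520982-57521281, plus strand for Cox5a; chr9:108936398-108936697, plus strand for Uqcrc1; chr6:126849095-126849394, minus strand for Ndufa9; and chr13:30545267-30545566, minus strand for Uqcrfs1. Capitals mark letters that match 1 of 5 motifs on either strand: the NRF1 core (GCGCATGC), an ETS site as bound by GABP (CCGGAAGT), YY1 (AANATGGCG), SP1 (GGGCGG) and CREB (TGACGTCA).
Sdha: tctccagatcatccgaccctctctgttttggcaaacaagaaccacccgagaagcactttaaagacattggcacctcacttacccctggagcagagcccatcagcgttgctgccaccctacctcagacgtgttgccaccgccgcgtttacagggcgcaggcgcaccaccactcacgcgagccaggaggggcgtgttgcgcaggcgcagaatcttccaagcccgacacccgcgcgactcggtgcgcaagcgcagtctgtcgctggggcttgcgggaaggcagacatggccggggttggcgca
Cox5a: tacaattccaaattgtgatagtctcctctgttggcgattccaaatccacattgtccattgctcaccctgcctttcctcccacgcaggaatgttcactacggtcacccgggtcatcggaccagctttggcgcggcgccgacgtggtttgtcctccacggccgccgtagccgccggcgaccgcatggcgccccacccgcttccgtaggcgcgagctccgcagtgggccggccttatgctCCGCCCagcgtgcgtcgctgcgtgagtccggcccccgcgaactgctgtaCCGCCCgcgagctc
Uqcrc1: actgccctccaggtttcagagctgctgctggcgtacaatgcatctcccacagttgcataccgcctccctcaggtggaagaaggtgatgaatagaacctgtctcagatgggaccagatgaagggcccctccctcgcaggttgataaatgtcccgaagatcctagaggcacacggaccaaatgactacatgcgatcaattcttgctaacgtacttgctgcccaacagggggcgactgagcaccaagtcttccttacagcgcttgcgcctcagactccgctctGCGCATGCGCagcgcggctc
Ndufa9: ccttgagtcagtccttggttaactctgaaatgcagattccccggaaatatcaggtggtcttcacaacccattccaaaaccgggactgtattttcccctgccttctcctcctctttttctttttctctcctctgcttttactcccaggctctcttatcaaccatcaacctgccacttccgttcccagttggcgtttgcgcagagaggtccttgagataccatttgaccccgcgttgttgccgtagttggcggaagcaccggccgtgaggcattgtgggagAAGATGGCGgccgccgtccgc
Uqcrfs1: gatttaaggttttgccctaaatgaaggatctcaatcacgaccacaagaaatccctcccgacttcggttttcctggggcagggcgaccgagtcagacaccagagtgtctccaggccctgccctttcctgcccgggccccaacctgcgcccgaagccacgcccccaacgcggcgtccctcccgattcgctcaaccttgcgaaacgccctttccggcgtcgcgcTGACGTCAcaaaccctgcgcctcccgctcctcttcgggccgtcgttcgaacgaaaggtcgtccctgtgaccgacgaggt

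Sdha held none of the 5 letter strings. Cox5a held the SP1 letters at 2 places, Uqcrc1 held overlapping NRF1 core matches on both strands just after its start, Ndufa9 held the YY1 letters just after its start, and Uqcrfs1 held the CREB letters just before its start. Among the other members called lower when the length trend was removed, Ndufs8 and Ndufb7 held none of the 5 letter strings and Ndufb2 held the CREB letters. RefSeq windows were matched by symbol for 70 members (75 windows). The NRF1 core was found in 10 of the 75 (13.3%) against 2.7% of all 32851 windows, and the YY1 letters in 10 (13.3%) against 2.4%. The CREB letters were in 5.3% against 1.8%, the ETS letters in 6.7% against 3.9%, and the SP1 letters in 38.7% against 35.7%. The median GC content was 57.7% in members' windows and 52.7% in all windows. A match describes the letters only, and binding was not measured.

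To ask whether OGT inhibition changes expression of the respiratory chain genes, OGTi was compared with control by edgeR's quasi-likelihood test, with the pair as a block and Benjamini-Hochberg adjustment over all 19963 genes tested. Most members differed little between the groups. Of the 84 tested, 1 was called higher (Cox5a) and 2 were called lower (Sdha and Atp5a1) at an adjusted p of at most 0.05, with 8 members at an unadjusted p under 0.05 (31.8% of all genes) and 5 called by DESeq2 (28.2% of the 17253 genes to which it gave an adjusted p). Over all genes tested 18.4% were called, with 8.13% higher and 10.2% lower, whereas 3.57% of members were. The median log2 fold change of members was 0.07, beside 0.01 for all genes, and 72 of the 80 well-counted members lay within 0.5 of 0 on the log2 scale. The standard errors of these 80 ranged from 0.18 to 0.36. The 95% interval of the log2 fold change lay within -1 and 1 for 71 of the 84 members (84.5%) and for 27.1% of all genes, many of which had far fewer counts.

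The pairs differed from each other. The members' median log2 ratio was 0.49 in pair 1, -0.08 in pair 2, -0.01 in pair 3 and -0.21 in pair 4, while the all-gene median lay between -0.03 and 0.03 in each. Members were thus higher with OSMI-1 in the first pair and at or below 0 in the others. Without pair 1, the same 2 members were called lower (9.03% of all genes tested) and none was called higher (7.14% of all genes), with 14 members at an unadjusted p under 0.05 (31.0% of all genes), and the members' median turned to -0.06. OGTi groups lay wholly above control for 3 members (11.5% of all genes) and wholly below for 4 (12.0% of all genes). Those above were Cox5a, Ndufa1 and Ndufa7, and those below were Sdha, Atp5a1, Ndufs1 and Uqcrc1.

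**Figure D1:**
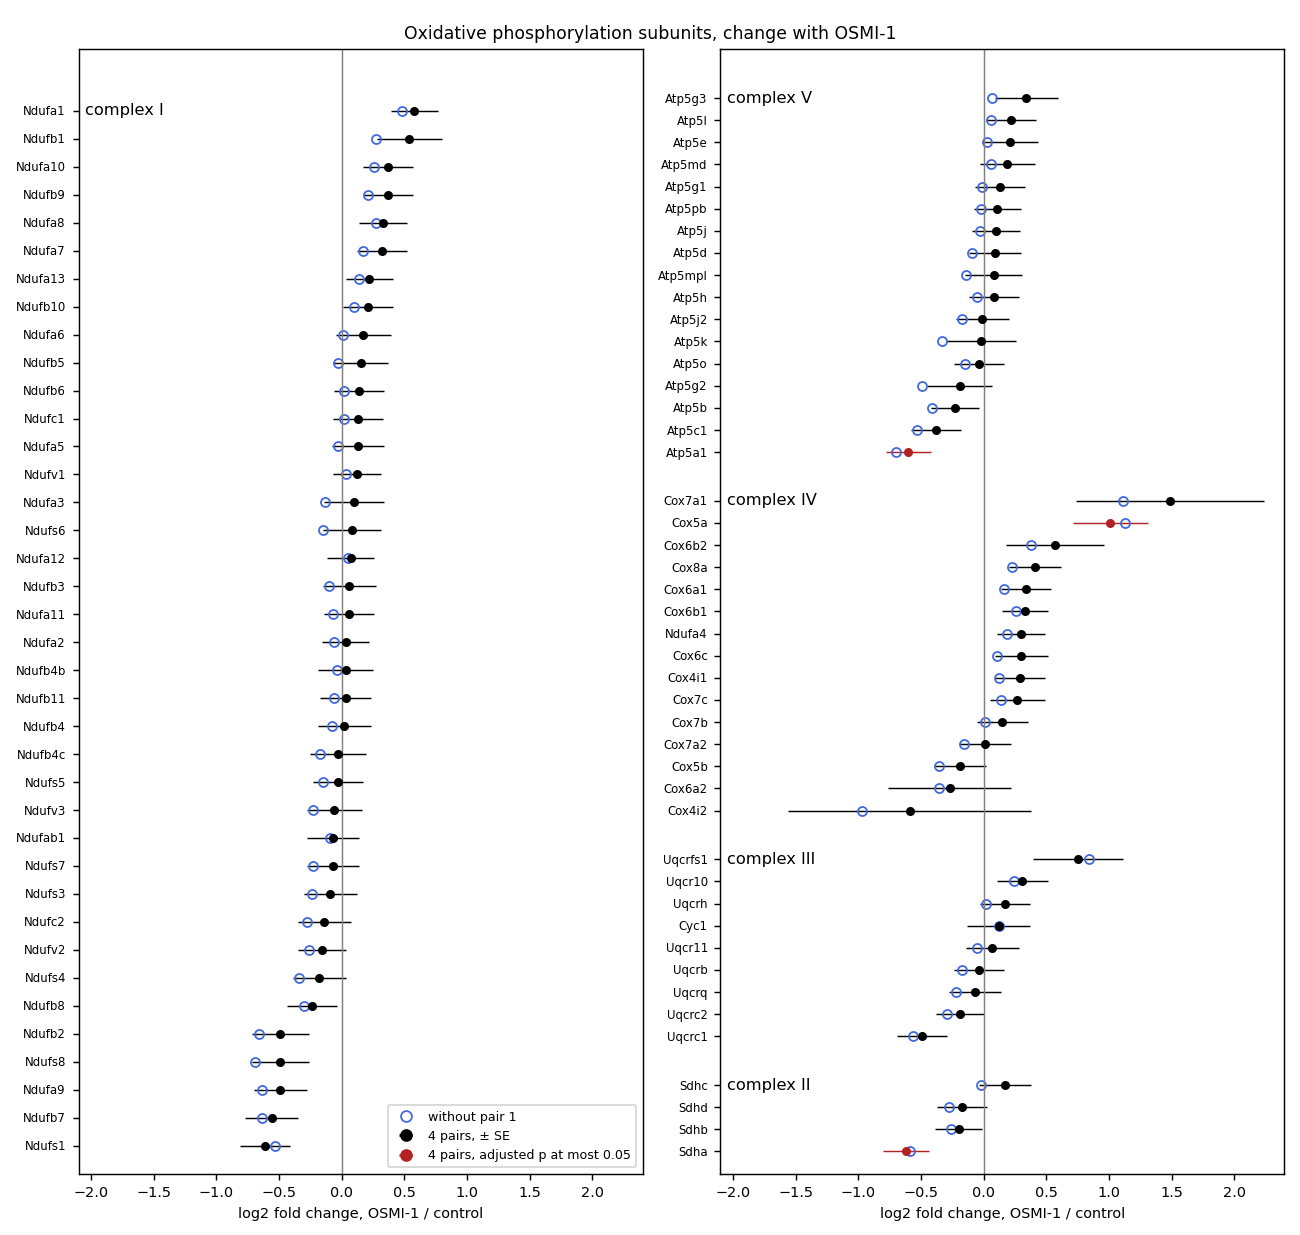
Log2 fold change of tested members between OSMI-1 and control, by complex, with 1 member of complex I not shown; filled points are the fit on 4 pairs with bars of 1 SE, red where the adjusted p was at most 0.05, and open blue circles are the fit without pair 1. Most filled points lie within 0.5 of 0, and the open circles lie to the left of most of them.

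Transcript length separated the members in pair 1. All genes were divided into 5 classes of equal size by mean transcript length, and 73 of the 84 tested members fell in the class of shortest transcripts (137 to 1520 bases), 7 in the second and 4 in the third. In pair 1 the all-gene median fell from 0.52 in the shortest class to -0.55 in the fourth class and -0.42 in the longest. The members' medians in that pair were 0.50, 0.14 and -0.50 in the 3 classes they occupied. In pairs 2 to 4 the all-gene medians of the same 3 classes stayed between -0.05 and 0.10. The 4 members of the third class (Sdha, Ndufs1, Atp5a1 and Ndufa11) had medians of -0.45, -0.44 and -0.75 in those pairs, and the 73 shortest had medians of -0.07, 0.01 and -0.14. Across the 80 well-counted members, Pearson's r between log2 length and the log2 ratio was -0.60 in pair 1 and -0.44, -0.36 and -0.18 in pairs 2 to 4, as a description of members that share libraries. By rank, Spearman's rho was -0.53 in pair 1 and -0.41, -0.34 and -0.34 in pairs 2 to 4.

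**Figure D2:**
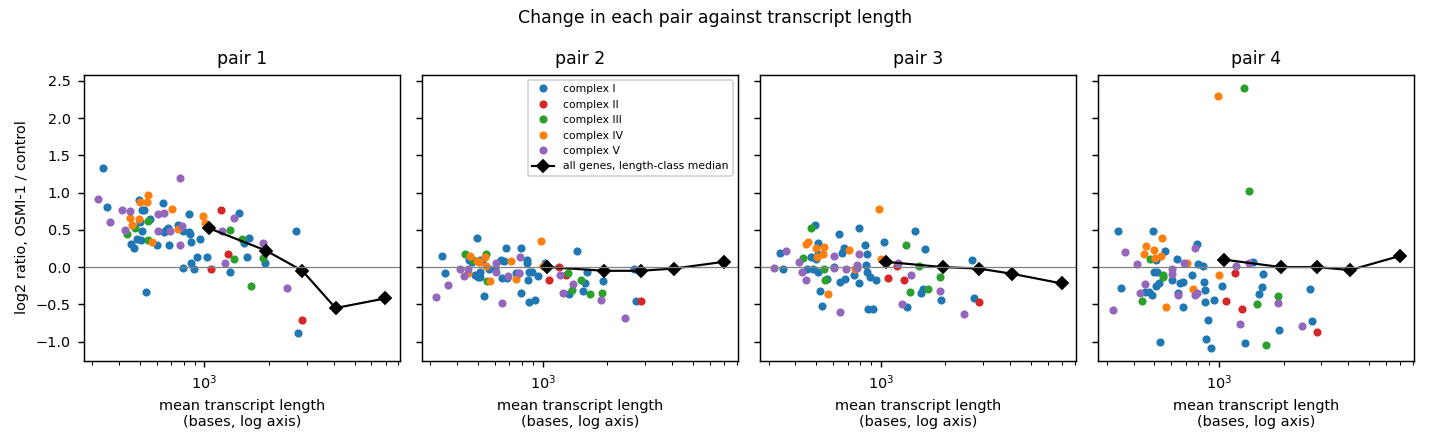
Log2 ratio of OSMI-1 to control in each of the 4 pairs (1 panel each) against mean transcript length in bases on a log axis; points are the 80 well-counted members coloured by complex, and black diamonds are medians of all genes in 5 length classes. In pair 1 the diamonds run from 0.52 down to -0.55 and members follow them, while the diamonds lie between -0.22 and 0.15 in the other panels.

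When the length trend of each library was removed before the fit, no member was called higher (10.7% of all genes) and 8 were called lower (9.52% of members and 9.89% of all genes), with 14 at an unadjusted p under 0.05 (33.8% of all genes). The 8 were Sdha, Atp5a1, Ndufs1, Ndufs8, Ndufa9, Ndufb2, Ndufb7 and Uqcrc1, which take in the catalytic subunit of complex II, the catalytic-head alpha subunit of ATP synthase, iron-sulfur subunits and accessory subunits of complex I, and a core protein of complex III. The members' median was then -0.09, beside 0.09 for all genes.

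Complex I takes electrons from NADH. None of its 39 tested members was called by edgeR (18.4% of all genes), with 4 at an unadjusted p under 0.05 (31.8%) and 2 called by DESeq2 (28.2%). With the length trend removed 5 were called lower, beside 9.89% of all genes. The 7 core subunits of the matrix arm carry the flavin and the iron-sulfur clusters, and had a median log2 fold change of -0.16, and of -0.26 without pair 1. Ndufs1, the largest of them and a carrier of iron-sulfur clusters, lies at chr1:63182058-63216236 (GRCm39, minus strand). Its scaled counts were 4401.9, 4399.6, 4303.0 and 4811.6 in control replicates 1 to 4 and 2398.5, 3215.0, 3240.9 and 2919.8 in OGTi. The groups did not overlap, and the log2 fold change was -0.61 ± 0.20 (SE, adjusted p = 0.0546), just short of the threshold. Ndufs1 was called lower in 5 of 14 alternatives, by DESeq2 (adjusted p = 0.0237), without the pair block (0.0452), with library totals alone (0.018), with the length trend removed (0.0446) and by limma on TPM (0.0165). Without pair 1 it was -0.53 (adjusted p = 0.074).

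In the reported fit, the other core subunits had smaller log2 fold changes than Ndufs1. Ndufs8, which carries iron-sulfur clusters near the quinone site, had scaled counts of 3802.9, 4470.8, 3342.6 and 3251.7 in control and 4185.6, 3286.5, 2267.7 and 1534.6 in OGTi. It was lower in OGTi in pairs 2 to 4 but not in pair 1, and its log2 fold change of -0.49 ± 0.23 had an adjusted p of 0.184 in edgeR. Without pair 1 it was -0.69, with an adjusted p that rounds to 0.05 and lies just above the threshold, and without pair 4 it was -0.28 (adjusted p = 0.502). Ndufv2, which carries an iron-sulfur cluster, had a log2 fold change of -0.16 ± 0.19 (adjusted p = 0.62), and -0.26 without pair 1. Ndufs7, which passes electrons to the quinone, had -0.07 ± 0.21 and Ndufv1, which binds NADH and flavin, had 0.12 ± 0.19, neither called. Without pair 1 they were -0.23 and 0.03.

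Accessory subunits of complex I spread to both sides of 0. The 20 of the membrane arm had a median log2 fold change of 0.12 and the 9 of the matrix arm 0.07, and without pair 1 both medians turned below 0, to -0.05 and -0.06. Ndufb7, an accessory subunit of the membrane arm chosen after its values were seen, had scaled counts of 4233.1, 3824.5, 3623.4 and 2988.7 in control and 3372.4, 2914.7, 2533.6 and 1479.4 in OGTi. It was lower in OGTi in all 4 pairs although the groups overlapped, and its log2 fold change was -0.56 ± 0.21 (adjusted p = 0.0899), and -0.64 (adjusted p = 0.0622) without pair 1. At the other end stood Ndufa1, a small membrane-arm subunit encoded on the X chromosome and likewise chosen after its values were seen. Its scaled counts were 3883.6, 3373.3, 3219.2 and 2771.9 in control and 7223.1, 4412.2, 4734.0 and 3885.9 in OGTi, every OGTi culture above every control. The log2 fold change was 0.58 ± 0.19 (adjusted p = 0.0648), and 0.48 (adjusted p = 0.0878) without pair 1. Ndufa1 was called higher by DESeq2 (adjusted p = 0.0121), with upper-quartile scaling (0.0401) and with a filter at a mean of 1 CPM (0.029), a setting in which it was the member called higher and Cox5a was not called (0.0547). No other alternative called Ndufa1. With the length trend removed the log2 fold change was 0.37 (adjusted p = 0.101), and with library totals alone 0.39 (adjusted p = 0.205). By limma on TPM it was 0.26 (adjusted p = 0.156), without pair 3 0.59 (adjusted p = 0.205) and without pair 4 0.62 (adjusted p = 0.113). Ndufa7, the member of complex I with the highest mean TPM, had control values between 5061.1 and 5354.9 and OGTi values between 5414.7 and 9121.9, with a log2 fold change of 0.32 ± 0.20 (adjusted p = 0.313), and 0.17 without pair 1. TPM is a transcript level scaled by gene length and by depth.

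Ndufab1, the mitochondrial acyl carrier protein found in both arms of complex I, had scaled counts of 3453.5, 3335.5, 2880.3 and 1389.3 in control and 3425.7, 2624.3, 2471.8 and 1719.5 in OGTi. Both replicate 4 libraries were the lowest of their group, and the log2 fold change of -0.07 ± 0.21 was not called, nor was that of -0.09 without pair 1. Reads of some complex I genes may not have been assigned to a single copy, which was not tested. Of the 100-base stretches of Ndufb4, Ndufb4b and Ndufb4c, 34.9%, 79.4% and 100% also occur in another gene's transcripts, and those of Ndufb8 in 63.3%, so their values are uncertain. The log2 fold changes of the 3 Ndufb4 genes lay between -0.03 and 0.03, and between -0.17 and -0.04 without pair 1.

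Complex II oxidises succinate and belongs to the citric acid cycle as well as to the respiratory chain. Sdha, its flavoprotein subunit and the site of succinate oxidation, lies at chr13:74469359-74498436 (GRCm39, minus strand). Its scaled counts were 13972.5, 15556.4, 13937.4 and 13609.1 in control and 8539.1, 11382.8, 10081.5 and 7465.0 in OGTi. All OGTi cultures were below all controls, the mean fell by 34.4%, and the log2 fold change was -0.62 ± 0.18 (adjusted p = 0.0393). Without pair 1 the change was -0.59 with an adjusted p of 0.0486, and across 14 alternative settings it ranged from -0.94 to -0.49 and was called in 7. Leaving out pair 2, 3 or 4 ended the call (adjusted p = 0.087, 0.119 and 0.139). The promoter window of Sdha, shown above, held none of the motif letters searched.

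The 3 other complex II subunits were not called. Sdhb, the iron-sulfur subunit and the member of this complex with the highest TPM, had a log2 fold change of -0.20 ± 0.19 (adjusted p = 0.507), and -0.26 without pair 1, with control values from 6813.7 to 8319.5 and OGTi values from 4973.6 to 8190.9. The membrane anchors Sdhc and Sdhd had log2 fold changes of 0.17 ± 0.21 and -0.17 ± 0.20, and without pair 1 of -0.02 and -0.28. Summed over the 4 genes, complex II took 0.147% ± 0.00493 (SD, n = 4) of TPM in control and 0.108% ± 0.0184 in OGTi. A lower mean share in OGTi was not particular to complex II. Complex III took 0.543% and 0.455%, complex V 0.965% and 0.788%, and mitochondrial ribosomal proteins 0.898% and 0.675%. The mean of complex I was lower too, whereas complex IV took 1.04% in both groups. TPM does not use the TMM scaling, and the all-gene median log2 fold change by limma on TPM was also negative.

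Complex III passes electrons from ubiquinol to cytochrome c. None of its 9 members was called by edgeR or by DESeq2 (18.4% and 28.2% of all genes), and 1 had an unadjusted p under 0.05 (31.8%). The median log2 fold change was 0.07, and -0.05 without pair 1. Uqcrc1, a core protein of the matrix side, lies at chr9:108765701-108778710 (GRCm39, plus strand) and was chosen after its values were seen. Its scaled counts were 21787.5, 21305.0, 20791.1 and 18624.0 in control and 18312.3, 16603.5, 16872.3 and 9065.1 in OGTi. The groups did not overlap, with a log2 fold change of -0.49 ± 0.20 (adjusted p = 0.123), and -0.56 (adjusted p = 0.0874) without pair 1. OGTi replicate 4 lay far under the other 3, and without pair 4 the change was -0.29 (adjusted p = 0.385).

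The redox subunits of complex III rested on control replicate 4. Uqcrfs1, the Rieske iron-sulfur protein, lies at chr13:30723448-30729345 (GRCm39, minus strand) and had scaled counts of 6449.2, 6540.9, 5388.6 and 1091.6 in control and 9151.6, 6205.6, 6568.0 and 5820.2 in OGTi. Cyc1, cytochrome c1, had 9751.3, 9250.3, 8343.5 and 2777.7 in control and 10539.2, 7474.2, 6619.8 and 5632.9 in OGTi. In both genes control replicate 4 was far under the 3 other controls, and OGTi replicate 4 was the lowest of its group by less, at 0.796 of the mean of the 3 other OGTi cultures for Uqcrfs1 and 0.686 for Cyc1. Their log2 fold changes were 0.75 ± 0.36 (adjusted p = 0.191) and 0.12 ± 0.25 (adjusted p = 0.801), without pair 1 they were 0.84 and 0.12, and without pair 4 they were 0.25 and -0.16. With no filter on low counts Uqcrfs1 was called higher (0.74, adjusted p = 0.0447). Uqcr11, a small subunit with the highest TPM of the complex, had a log2 fold change of 0.07 ± 0.21 (adjusted p = 0.858), and -0.05 without pair 1, with control values from 5310.7 to 6885.6 and OGTi values from 3898.5 to 9015.4.

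**Figure D3:**
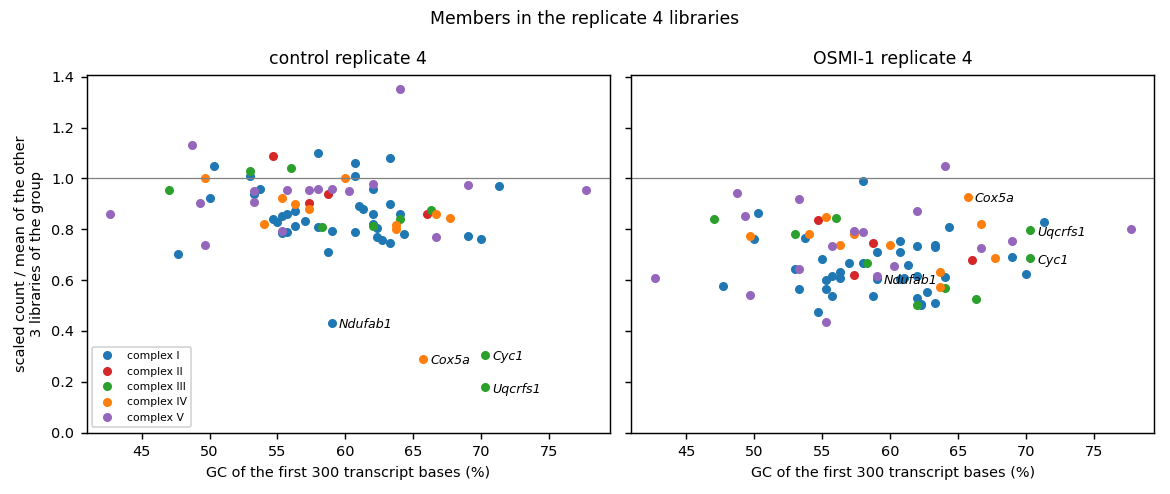
Scaled count of each well-counted member in control replicate 4 (left) and OSMI-1 replicate 4 (right), divided by the mean of the 3 other libraries of the same group, against the GC content of the first 300 transcript bases in percent; colours mark the complex. Uqcrfs1, Cyc1, Cox5a and Ndufab1 lie at 0.178, 0.305, 0.29 and 0.431 in control replicate 4 and among the other members in OSMI-1 replicate 4.

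The GC content of the first 300 transcript bases was 70.3% for Uqcrfs1 and for Cyc1, 65.7% for Cox5a and 59.0% for Ndufab1, beside a median of 58.5% for the 76 others. Of the 10717 well-counted genes of the whole table, 9.71% were below 0.5 of the other controls in control replicate 4. These had a median of 69.7% GC over the same stretch, against 62.7% for all of them. Atp5h, at 77.7%, was at 0.955 of the other controls. The part of base composition in these values was not tested.

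Complex IV reduces oxygen to water. Its 11 common subunits had a median log2 fold change of 0.30, and of 0.14 without pair 1, and 1 of them was called (18.4% of all genes). Cox5a, a matrix-side subunit, lies at chr9:57428456-57440678 (GRCm39, plus strand). Its scaled counts were 6436.4, 5586.8, 5230.2 and 1668.7 in control and 10411.2, 7143.7, 8986.8 and 8208.2 in OGTi. Every OGTi culture was above every control, but the lowest control, replicate 4, was far from the other 3. The log2 fold change was 1.01 ± 0.30 (adjusted p = 0.0427). Without pair 4 it was 0.62 (adjusted p = 0.105), and in an unpaired fit without control replicate 4, chosen after seeing the data, it was 0.62 (adjusted p = 0.0845). Without pair 1 it was 1.13 (adjusted p = 0.0702) and without pair 3 it was 1.1 (adjusted p = 0.0867). Cox5a was higher in OGTi in each of the 4 pairs and under each of the 14 alternative settings, of which 4 called it.

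**Figure D4:**
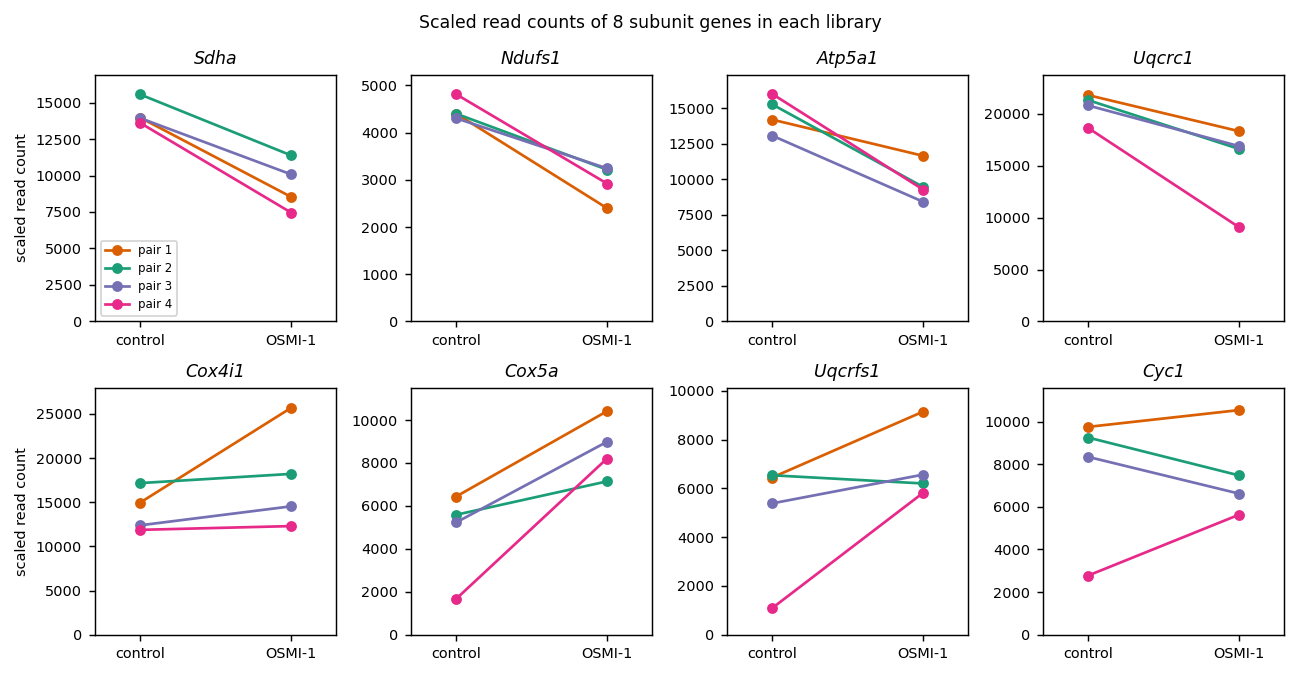
Scaled read counts of 8 members in the 4 control and 4 OSMI-1 libraries, with a line joining the libraries of each pair; each vertical axis starts at 0. Sdha, Ndufs1, Atp5a1 and Uqcrc1 are lower with OSMI-1 in every pair, Cox4i1 and Cox5a are higher in every pair, and the pair 4 control is the lowest point of Cox5a, Uqcrfs1 and Cyc1.

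None of the other common complex IV subunits was called by edgeR. The log2 fold changes of those described here ran from 0.01 to 0.41, except Cox5b at -0.19 ± 0.21, and all were lower without pair 1 and with the length trend removed. Cox4i1, which regulates the enzyme's response to ATP, had scaled counts of 14957.6, 17172.8, 12391.4 and 11878.7 in control and 25687.1, 18214.9, 14540.6 and 12304.2 in OGTi. OGTi was above control in each pair, most in pair 1, and the log2 fold change was 0.29 ± 0.20 (adjusted p = 0.354), and 0.12 without pair 1. Cox6b1, the subunit of this complex with the highest TPM, had a log2 fold change of 0.33 ± 0.18 (adjusted p = 0.236), and Cox6a1, Cox8a, Cox7b and Cox7a2 had 0.34, 0.41, 0.15 and 0.01. Without pair 1, Cox6b1 had 0.26, these 4 had 0.16, 0.23, 0.01 and -0.16, and Cox5b had -0.36. With the length trend removed, Cox4i1, Cox6b1 and Cox6a1 had 0.14, 0.11 and 0.14, Cox8a and Cox7b had 0.22 and 0.05, and Cox7a2 and Cox5b had -0.13 and -0.37. By limma on TPM, Cox4i1, Cox7b and Cox7a2 turned below 0 (-0.04, -0.17 and -0.32), and Cox6b1 and Cox6a1 had 0.0 and 0.01. Of the 15 tested genes of the complex, isoforms included, 12 were above 0 and 3 below. The median log2 ratio of these 15 was 0.66, 0.07, 0.25 and 0.15 in pairs 1 to 4, and above the median of each other complex in all 4 pairs. This order was noticed in the data and has no test. Without pair 1 the fitted median of the 15 was 0.14, and with the length trend removed 0.09.

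Of the tissue-restricted isoforms of complex IV, which replace a common form in muscle, lung or testis, little was present. Cox4i2, the lung isoform, took between 0.0098% and 0.101% of the Cox4i1 and Cox4i2 total TPM in any library. Cox6a2, the heart and muscle form, had 53 and 78 counts in 2 controls and 69 in OGTi replicate 1, and between 8 and 16 elsewhere, which was at most 0.434% of its pair with Cox6a1. Cox6b2, a testis form, was at most 0.467% of its pair with Cox6b1. Cox7a1, a heart and muscle form, had 3, 8, 6 and 3 counts in control and 18, 16, 10 and 5 in OGTi. Its share of the total with Cox7a2 was 0.316% to 0.917% in control and 0.849% to 2.45% in OGTi. It was higher in OGTi in every pair with overlapping groups, and its log2 fold change of 1.49 ± 0.75 (adjusted p = 0.205; 1.11 without pair 1) carried the widest error among members above 0. Cox7b2 and Cox8b had 1 count each and Cox8c had 4, all in OGTi, and 0 counts in the 4 controls.

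**Figure D5:**
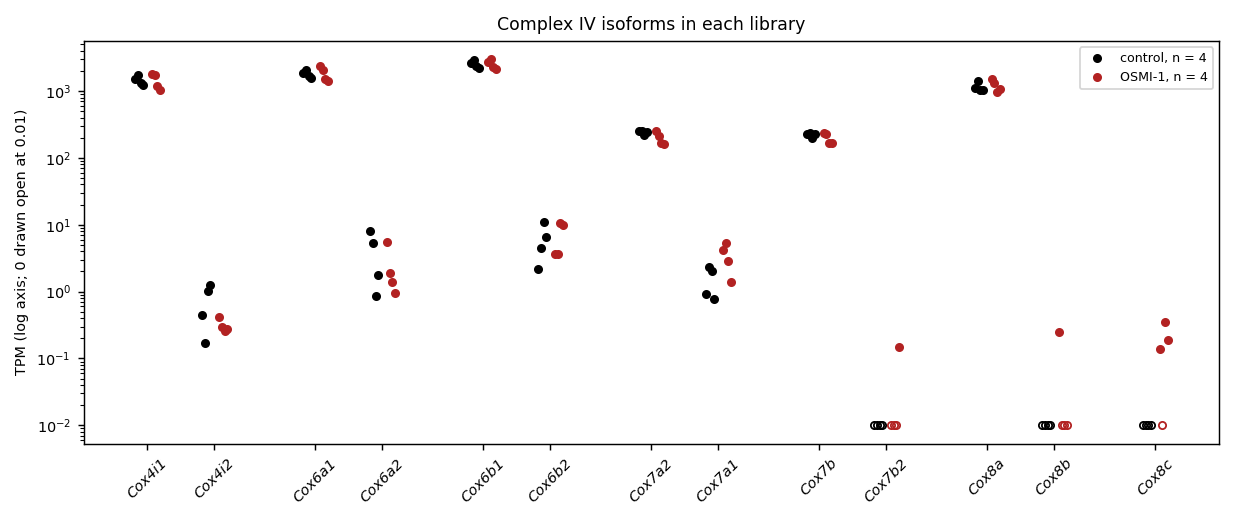
TPM of common and tissue-restricted complex IV isoforms on a log axis, 1 point per library, control in black and OSMI-1 in red, with values of 0 drawn open at 0.01. Each common form lies far above its restricted counterpart, and the restricted forms lie at 11.1 TPM or less in every library.

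Complex V makes ATP. Its F1 head, on the matrix side, holds the catalytic sites. Atp5a1 (now Atp5f1a), the alpha subunit of the head, is on chromosome 18. Its scaled counts were 14192.7, 15265.4, 13066.4 and 15999.5 in control and 11648.4, 9459.8, 8415.2 and 9274.1 in OGTi. All OGTi cultures were below all controls, the mean fell by 33.7%, and the log2 fold change was -0.60 ± 0.18 (adjusted p = 0.0471). Without pair 1 it was -0.70 with an adjusted p of 0.0215. It was called in 9 of 14 alternative settings, and leaving out pair 2, 3 or 4 ended the call (adjusted p = 0.148, 0.177 and 0.149).

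Atp5b, the beta subunit that carries the catalytic residues of the head, was the most abundant member by reads and by TPM within complex V. Its scaled counts were 57218.2, 68123.8, 44107.9 and 55081.9 in control and 71474.6, 50206.8, 35367.9 and 39388.0 in OGTi. OGTi was higher in pair 1 and lower in the other pairs, with a log2 fold change of -0.23 ± 0.19 (adjusted p = 0.454), and -0.41 (adjusted p = 0.084) without pair 1. The 5 genes of the head and central stalk had a median of -0.23, and -0.41 without pair 1. The 4 genes of the peripheral stalk, which holds the head still, had a median of 0.09, and the 5 other membrane subunits 0.08, which turned to -0.04 and -0.14 without pair 1.

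The c ring turns as protons pass, and its identical c subunit is made from 3 genes whose precursors differ in the targeting part. Atp5g1 took 63.4% ± 2.3 (SD, n = 4) of the TPM of the 3 genes in control and 63.7% ± 8.48 in OGTi. Atp5g2 took 19.4% ± 2.92 in control and 15.9% ± 4.28 in OGTi, and Atp5g3 took 17.3% ± 1.47 and 20.4% ± 4.75. The shares overlapped between groups for each gene. The log2 fold changes of the counts were 0.13 ± 0.20, -0.19 ± 0.26 and 0.34 ± 0.25, none called. Without pair 1 they were -0.01, -0.49 (adjusted p = 0.106) and 0.07. OGTi replicate 1 held 5326.5 scaled counts of Atp5g3, far above the 1981.9 to 2523.6 of the other OGTi cultures. Sequence shared with other transcripts covers 55.6% of the 100-base stretches of Atp5g1 and 87.0% of those of Atp5g2, so the split is uncertain. Atpif1, the inhibitor of ATP synthase, is not matched by the naming patterns and had a log2 fold change of -0.12 ± 0.19 (adjusted p = 0.713), and -0.19 without pair 1.

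Within complexes I, III, IV and V (39, 9, 11 and 17 genes), the highest subunit level was 7.33 to 12.0 times the lowest. Within complex II it was 1.67 times, but with 4 genes such a ratio has less room to widen. By mean TPM in control, complex I members ran from 76.1 (Ndufs4) to 911 (Ndufa7) with a median of 262, complex II from 265 (Sdha) to 441 (Sdhb), complex III from 203 (Uqcrc2) to 1490 (Uqcr11), complex IV from 222 (Cox7b) to 2540 (Cox6b1) among well-counted members, and complex V from 198 (Atp5g3) to 1660 (Atp5b). All members together took 4.23%, 4.43%, 3.91% and 3.65% of TPM in control replicates 1 to 4 and 4.28%, 4.03%, 3.16% and 2.75% in OGTi. The shares overlapped, and OGTi was below control in pairs 2 to 4 and not in pair 1. In bulk RNA, less RNA per cell and fewer cells of a kind cannot be told apart.

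Genes that work with the members were listed with earlier results known. Over all genes tested, 18.4% were called, 8.13% higher and 10.2% lower. The share called was 3.92% of assembly factors, 5.88% of carrier and coenzyme Q genes and 6.25% of biogenesis regulators. Over all genes, calls without pair 1 were 7.14% higher and 9.03% lower, and with the length trend removed 10.7% and 9.89%. Of 51 tested assembly factors, which build the complexes, 2 were called higher and none lower, with a median of 0.02. These were Sdhaf2, which helps attach flavin to Sdha (log2 fold change 0.71, adjusted p = 0.042), and Sco2, which delivers copper to complex IV (0.84, adjusted p = 0.0299); without pair 1 neither was called (adjusted p = 0.0719 and 0.0603), and Cox20, an assembly factor of complex IV, was called lower (-1.11, adjusted p = 0.0227). With the length trend removed, 3 assembly factors were called higher (Sdhaf2, Sco2 and Cmc2) and 3 lower (Cox20, Ndufaf8 and Lyrm7). Of 17 genes for electron carriers and coenzyme Q synthesis, 1 was called lower, the coenzyme Q-binding Coq10b (-0.77, adjusted p = 0.0209, and 0.0832 without pair 4; Coq7 was also called lower without pair 1 and with the length trend removed), and Cycs, cytochrome c, had 0.07. Of 16 regulators of mitochondrial biogenesis, 1 was called lower, Gabpb2, a partner of GABP (-1.27, adjusted p = 0.0416); it was not called without pair 1 (adjusted p = 0.132), and with the length trend removed the 1 regulator called was Twnk, the mitochondrial DNA helicase, which was higher (0.74, adjusted p = 0.0403). Nrf1, which binds the NRF1 core counted above, had -0.60 (adjusted p = 0.175), and -0.29 without pair 1. None of 4 tested supercomplex and related isoform genes was called by edgeR or DESeq2, with 2 at an unadjusted p under 0.05 (31.8% of all genes). All 4 were above 0, with a median of 0.50, and of 0.33 without pair 1 and 0.37 with the length trend removed.

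The citric acid cycle, in which Sdha also acts, had 13 tested enzymes. Of these 3 were called lower (23.1%, beside 10.2% of all genes) and none higher (8.13% of all genes). Cs, citrate synthase, had a log2 fold change of -1.0 (adjusted p = 0.00416). Suclg2, a subunit of succinyl-CoA ligase, had -1.14 (adjusted p = 0.00521), and Idh3g, a subunit of isocitrate dehydrogenase, had -0.96 (adjusted p = 0.0191). All 3 were also called without pair 1, with adjusted p-values of 0.00789, 0.0119 and 0.0117, and Idh3g was not called without pair 4 (adjusted p = 0.0884). The median of the list was -0.19, beside -0.18 for the 4 subunits of complex II, and without pair 1 these were -0.30 and -0.27. Side by side with the 3 of 84 members called, 7 of 78 mitochondrial ribosomal protein genes were called (8.97%, with 1 higher and 6 lower, median -0.04). None of 82 cytosolic ribosomal protein genes was called (median 0.09, with 5 at an unadjusted p under 0.05 and none called by DESeq2). Of all genes 18.4% were called by edgeR, 31.8% had an unadjusted p under 0.05, and 28.2% of those DESeq2 adjusted were called. Both ribosomal lists have short transcripts too, with pair 1 medians of 0.28 and 0.80. Without pair 1 there were 8 and 4 called lower (9.03% of all genes) and none higher (7.14% of all genes). With the length trend removed, 3 mitochondrial ribosomal protein genes were called higher and 12 lower, and 6 cytosolic ones were called lower and none higher. The all-gene shares in that fit were 10.7% higher and 9.89% lower.

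Some cell type markers were called, as were 18.4% of all genes tested. Of 10 stellate cell or myofibroblast markers, Pdgfrb (-1.68) and Lrat (-1.78) were called lower, with 4 of the list above 0 and 6 below, and the 10 genes summed to between 0.734% and 1.49% of TPM in control and between 0.587% and 1.52% in OGTi. Hepatocyte markers summed to 0.08 to 0.56 TPM in control and 0.57 to 1.63 TPM in OGTi, with Tat at 0 in all 8 libraries and Cyp2e1 called higher at no more than 45.9 scaled counts. Of 6 endothelial markers, Tek and Lyve1 were called lower, although 3 of the list were above 0 (up to 1.33 for Pecam1, not called) and 3 below, and the list summed to 1.43 to 2.78 TPM in control and 0.32 to 0.88 TPM in OGTi. Of 6 macrophage markers, Cd68 was called higher (1.5), while 3 of the list were above 0 and 3 below, down to -1.23 for Clec4f, which was not called. Ptprc was at no more than 14.3 scaled counts, and the list took 0.00498% to 0.0169% of TPM in control and 0.00875% to 0.0226% in OGTi. Of 4 cholangiocyte markers, Sox9 was called higher and Krt19 lower, and the list summed to 87.2 to 141 TPM in control and 57.2 to 84.1 TPM in OGTi. The sums of the hepatocyte, endothelial and cholangiocyte lists did not overlap between the groups, and those of the stellate cell and macrophage lists did. Without pair 1, Lyve1 and Krt19 were not called (adjusted p = 0.0759 and 0.0606). The part of these cell types in the members' values was not tested.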

How the data were processed

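RNA-seq of 4 control and 4 OGTi cultures was used. Per the labels and the methods, the authors sequenced poly(A)-selected RNA in strand-specific, paired-end libraries, mapped reads with Bowtie2 2.3.5.1 to mm39 (GRCm39) and deposited RSEM 1.3.1 expected counts (estimated reads per gene) and TPM. The methods name a GENCODE annotation, while transcript identifiers in the tables are RefSeq ones. A deposited series table holds the authors' DESeq2 1.36.0 comparison with counts repeated from these libraries and was not used. Groups and replicate numbers came from sample titles. Members, gene lists and motifs were chosen with earlier results of these data known.

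Expected counts were rounded to whole numbers. The 19963 genes with a total of at least 10 counts were fitted in edgeR 4.0.16 (R 4.3.3) by the quasi-likelihood test with TMM scaling, the pair as a block and Benjamini-Hochberg adjustment. The SE is the log2 fold change divided by the root of F. Pair ratios are log2 of scaled counts plus 1. The script was tested on simulated data. Alternatives were DESeq2 1.42.0, limma 3.58.1 on log2(TPM + 1), other scalings and filters, a smooth trend of each library on log2 length removed as an offset, and leaving out each pair. Gene coordinates come from GENCODE vM39 on GRCm39. Named members were those called, the highest in mean TPM of each complex, a set of core subunits, tissue isoforms with their counterparts, the 3 c-subunit genes and the ATP synthase inhibitor. The values of 1 core subunit are not reported here. Others are said to be chosen after their values were seen, or were given for their place in a count or range.

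By the study's methods, each OGTi culture is paired with the control of its replicate number. Deviations from group means of same-numbered libraries correlated across genes at 0.149, 0.202, 0.083 and 0.289, and those of differently numbered libraries at -0.274 to 0.183. The sources used here name no molecular identifiers, and reads counted without them do not stand for independent molecules.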

Additional observations from a re-analysis of the deposited data

Results flagged for a closer look

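In groups of 4, a library was marked where its gap to the nearest other library exceeded Dixon's limit for the group's range. Of 67 groups of named members examined, 2 were marked, beside 3.35 that chance gives at 1 in 20. Both were in OGTi replicate 1. Atp5g3, a gene for the c subunit, had 5326.5 scaled counts there and 1981.9 to 2523.6 in the 3 other OGTi cultures. Cox6a2, the muscle isoform, had 70.7 scaled counts there and 10.3 to 17.9 in the others, while 2 of its controls held 71.5 and 46.6.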

How the results depend on the processing

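Members called higher and lower were 1 and 2 in the reported fit (8.13% and 10.2% of all genes, in the same order throughout). Without the replicate block (no pairing) they were 0 and 2 (7.31% and 7.67%), and in the added unpaired fit without control replicate 4 they were 0 and 0 (5.95% and 5.97%), with 5 at an unadjusted p under 0.05. With upper-quartile scaling they were 2 and 0 (10.3% and 8.68%), and with library totals alone 0 and 5 (6.29% and 14.6%). With no filter on low counts they were 2 (Uqcrfs1 and Cox5a) and 2 (7.13% and 9.28%), and with a mean of at least 1 CPM 1 (Ndufa1 in place of Cox5a) and 2 (11.7% and 13.5%). With the length trend removed they were 0 and 8 (10.7% and 9.89%), and with pair 1 also left out 0 and 4 (8.5% and 8.23%). By DESeq2 they were 2 and 3 (13.8% and 14.4%), and by limma on TPM 0 and 15 (5.99% and 17.3%), where the 15 were 17.9% of members. Leaving out each pair gave 0 to 1 higher and 0 to 2 lower (4.38% to 7.43% and 5.52% to 9.03%). The cause of these differences was not tested. The members' median log2 fold change ranged from -0.26 (limma on TPM) to 0.20 (upper quartile), and from -0.06 to 0.16 when a pair was left out. Scalings moved the all-gene median to 0.13 (upper quartile) and -0.19 (library totals), and the members stood 0.07 above it in both. Their distance from it was -0.18 with the length trend removed, -0.16 by limma on TPM and -0.07 without pair 1, and 0.21 without pair 4, 0.16 with a mean of at least 1 CPM and 0.12 without pair 2. Sdha, Atp5a1 and Ndufs1 were below 0 and Cox5a above 0 in all 14 alternatives. Of 487 values of named members under alternatives, 403 kept direction and call, 28 became called, 22 lost the call, and 34 uncalled values changed sign.

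The groups hold 4 pairs, so leaving out 1 pair also lowers the power of the test. Depth did not limit the well-counted members, whereas values of the tissue-restricted isoforms rest on few counts. The part of base composition and of sequence shared with gene copies in the members' values was not tested.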

Other observations

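The tables list the 2 ribosomal RNAs of mitochondrial DNA, mt-Rnr1 and mt-Rnr2, which form the core of the mitochondrial ribosome. They are no members and were chosen after their values were seen. Scaled counts of mt-Rnr1 were 2716.0, 3247.6, 3311.2 and 5145.9 in control and 29221.3, 6579.7, 15852.7 and 40974.3 in OGTi. Those of mt-Rnr2 were 13190.1, 13307.8, 17844.5 and 22941.3 in control and 72792.6, 27238.0, 87865.2 and 186673.6 in OGTi. Every OGTi culture was above every control for both genes, with OGTi replicate 2 the nearest to control. The log2 fold changes were 2.44 ± 0.36 (edgeR, adjusted p = 0.00181) and 2.22 ± 0.30 (adjusted p = 0.00114). Both were called in all 14 alternative settings, with log2 fold changes from 2.09 to 2.93 and from 1.88 to 2.70 and adjusted p-values of up to 0.0156 and 0.0142. The libraries were made from polyadenylated RNA, and how much of the difference comes from that selection was not tested.

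The citric acid cycle enzymes called lower had log2 fold changes further from 0 than Sdha and Atp5a1, a difference that was not tested. Cs was called in all 14 alternatives, with log2 fold changes from -1.32 to -0.87, as was Suclg2, from -1.39 to -1.0. Idh3g was called in 12. The mitochondrial ribosomal proteins Mrpl19 (-1.25, adjusted p = 0.00424), Mrps28 (-1.09, adjusted p = 0.00891) and Mrps5 (-0.94, adjusted p = 0.0159) were called lower, and Mrps6 was called higher (0.78, adjusted p = 0.0416).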
